A study of Mus musculus with 11 samples.

Results

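Activator protein 1 (AP-1) and BATF factors are transcription factors of the basic leucine zipper (bZIP) family, and 7 of their genes were followed here in mouse macrophages: Batf, Batf3, Jun, Junb, Jund, Fos and Fosl2. They were taken as a fixed list of symbols, and all 7 were among the 18193 genes measured. Where a gene had several probe sets, the one brightest on average over all 11 arrays stood for it, a rule that does not look at the groups.

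The cells were grown from bone marrow of Rag1-/- C57BL/6 mice aged 7 weeks, over 7 days in culture, and sorted for F4/80, a surface protein of mouse macrophages. All groups shared the Rag1-/- genotype, in which mature T and B cells are lacking. M0 cells had no cytokines (5 arrays), M1 cells had IFN-g and LPS, with LPS in the last 24 h (3 arrays), and M2a cells had both IL-4 and IL-13 (3 arrays). The RNA was read on Affymetrix mouse genome arrays. Whether replicates came from separate mice or cultures is not in the labels, so each p-value reflects the spread among these samples alone, and that spread may be technical.

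AP-1 is a dimer of bZIP proteins that binds short DNA sites around TGANTCA. JUN proteins pair with each other or with FOS proteins, whereas FOS proteins need a JUN partner to bind DNA. Many of these genes are immediate early genes, switched on within minutes of a signal through MAP kinases, and their proteins are in turn activated by those kinases. BATF proteins lack the activation domain of FOS proteins, pair with JUN proteins, and bind composite sites together with IRF4 or IRF8. Batf3 is best known for its requirement in cross-presenting dendritic cells.

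Values are log2 probe-set values as deposited, and differences between groups are on the same scale, so that 1 unit is a 2-fold change. A gene is said to have risen or fallen where limma's moderated test, fitted on all 11 arrays, gave a Benjamini-Hochberg adjusted p under 0.05 over the 18193 genes. Levels of different genes were not compared, since each probe set has its own brightness. The M0 arrays were the least alike. Their correlations over genes ran from 0.956 to 0.995, and the SD of a typical gene (the median) was 0.244, against 0.0820 for M1 and 0.0857 for M2a. The average of M0 arrays 1, 2 and 3 matched that of M0 arrays 4 and 5 for all 45101 probe sets, to within 8.33e-05. The M0 arrays are therefore not 5 independent measurements, although the test counts them as such. Adgre1, which encodes F4/80, had mean levels of 11.19 in M0, 12.41 in M1 and 11.74 in M2a, on arrays whose values ran from 0.731 to 14.49. Of the 9 macrophage markers measured, 4 rose and 2 fell in M1, and 1 rose and 6 fell in M2a.

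The stretches before the transcription starts of 4 of the genes are shown because they hold matches to sites through which AP-1 and CREB-like factors are known to act. RefSeq promoter windows on GRCm38.p6 matched all 7 genes; each holds 250 bases before the start and 50 after it. They were searched on both strands for TGANTCA (AP-1), TGACNTCA (CRE-like), TGACG (the core of a CRE) and the STAT6 type, in which 4 bases part TTC and GAA. The 250 bases before the start are printed 5′ to 3′ in the direction of the gene, with the matches in capitals.
Batf, chr12:85686470-85686719, plus strand: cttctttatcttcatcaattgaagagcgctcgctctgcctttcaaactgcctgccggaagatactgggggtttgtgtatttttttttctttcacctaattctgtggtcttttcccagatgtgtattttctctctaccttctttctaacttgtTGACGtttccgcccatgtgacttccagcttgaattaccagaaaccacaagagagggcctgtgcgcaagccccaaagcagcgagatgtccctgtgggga
Jun, chr4:95052223-95052472, minus strand: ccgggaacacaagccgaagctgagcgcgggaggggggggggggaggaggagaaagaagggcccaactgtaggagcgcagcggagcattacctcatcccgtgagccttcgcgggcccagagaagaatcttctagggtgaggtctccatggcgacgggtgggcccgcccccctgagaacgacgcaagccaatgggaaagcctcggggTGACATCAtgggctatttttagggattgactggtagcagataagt
Junb, chr8:84978749-84978998, minus strand: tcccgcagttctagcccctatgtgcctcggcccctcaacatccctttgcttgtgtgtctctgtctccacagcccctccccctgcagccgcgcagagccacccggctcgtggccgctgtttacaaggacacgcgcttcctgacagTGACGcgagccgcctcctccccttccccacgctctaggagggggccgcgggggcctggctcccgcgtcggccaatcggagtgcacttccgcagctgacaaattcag
Fos, chr12:85473640-85473889, plus strand: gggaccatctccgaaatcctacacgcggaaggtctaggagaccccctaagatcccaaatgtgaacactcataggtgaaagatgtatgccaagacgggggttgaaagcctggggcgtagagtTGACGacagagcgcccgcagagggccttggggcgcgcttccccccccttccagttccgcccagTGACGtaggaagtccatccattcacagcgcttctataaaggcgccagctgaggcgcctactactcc

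The Jun window held 1 CRE-like match, TGACATCA, whose first base lies 45 bases before the start. The CRE core was found in 3 windows, 98 bases before the start in Batf, 106 in Junb, and 129 and 66 in Fos. The Batf3, Fosl2 and Jund windows held none of these letters. No window of the 7 genes held TGANTCA or the STAT6 type. Matches occur in many genes: among all 32851 RefSeq windows of 27025 genes, 7.81% held TGANTCA, 8.83% TGACNTCA, 20.8% TGACG and 6.95% the STAT6 type. A match describes letters only, and binding was not measured.

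Of the 7 genes, 2 rose and 1 fell in M1 against M0, beside 39.7% of all genes called in that comparison (22.1% higher, 17.6% lower). Against M0, 4 rose and 2 fell in M2a, beside 31.9% of all genes called (18.6% higher, 13.3% lower). Set directly against each other, M1 and M2a differed in 6 of the 7, with 2 higher and 4 lower in M1, beside 29.4% of all genes called (13.7% higher, 15.6% lower). The arrays of M1 and M0 did not overlap for 2 of the 7, both higher in M1, beside 40.1% of all genes (22.7% higher). For M2a and M0 they did not overlap for 6, with 4 higher and 2 lower, beside 35.1% of all genes (21.3% higher, 13.9% lower). For M1 and M2a, with 3 arrays each, 6 did not overlap, 2 higher and 4 lower in M1, beside 64.6% of all genes (30.7% higher, 33.9% lower). Junb was higher than in M0 in both cytokine states, Batf rose in M1 and fell in M2a, and Batf3, Jun and Jund rose in M2a with no call in M1. Both comparisons against M0 use the same M0 arrays, so a low or high M0 mean moves both together.

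**Figure D1:**
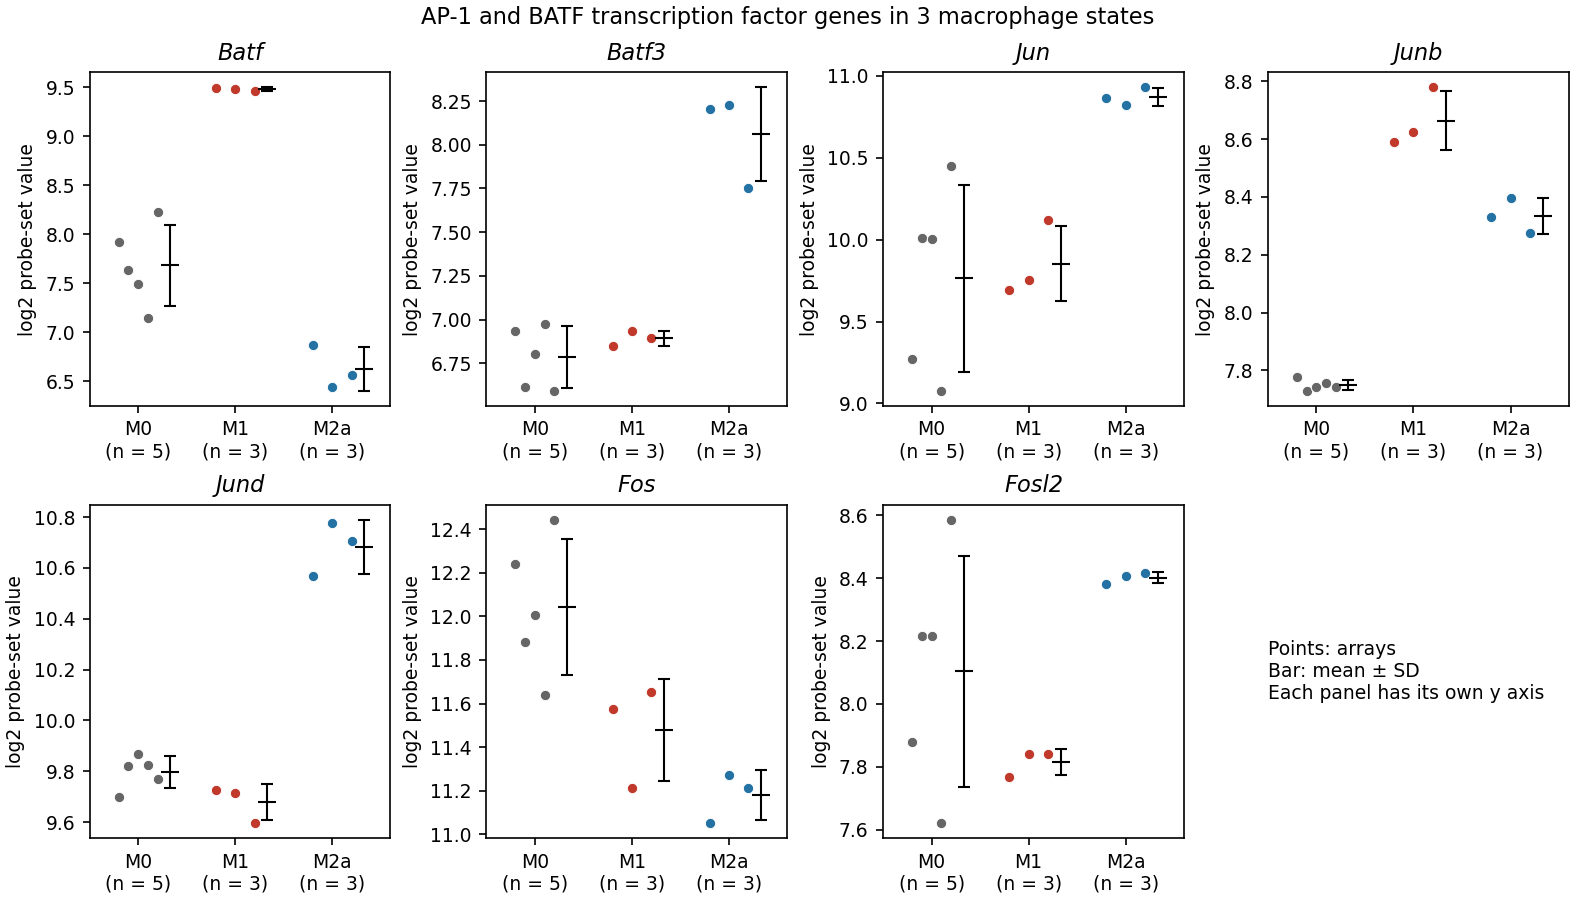
Log2 probe-set values of the 7 genes (y axis, a separate scale in each panel) in each array of M0 (n = 5), M1 (n = 3) and M2a (n = 3), with bars for the mean ± SD. The 3 M1 arrays lie above all others for Batf and Junb, the 3 M2a arrays lie above all others for Batf3, Jun and Jund, and the M0 arrays spread widely for Batf, Jun, Fos and Fosl2.

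Batf, the founding member of the BATF group, had the widest range over the states. Its log2 values in M0 arrays 1 to 5 were 7.92, 7.64, 7.49, 7.14 and 8.22. They were 9.49, 9.49 and 9.46 in the M1 arrays and 6.88, 6.44 and 6.57 in the M2a arrays. All M1 arrays lay above, and all M2a arrays below, every M0 array. The M1 mean exceeded the M0 mean by 1.80 ± 0.20 (SE, 3 and 5 arrays; limma adjusted p = 3.1e-05), a 3.47-fold rise. In M2a the level fell by 1.05 ± 0.20 (limma adjusted p = 0.0022), a 2.08-fold change. M1 therefore exceeded M2a by 2.85 ± 0.23 (limma adjusted p = 1.9e-06), or 7.21-fold.

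In cultures of this kind a lower level in bulk RNA can mean fewer cells of a type or less RNA per cell, and these cannot be told apart. Markers of the neutrophil lineage fell in both cytokine states: 10 of the 11 measured in M1 and 11 of 11 in M2a, with none rising; in M1 against M2a, 4 were higher in M1. Their mean log2 level lay between 11.42 and 12.88 in the M0 arrays, between 7.26 and 7.43 in M1, and between 5.38 and 5.47 in M2a. Of the 10 mast cell, basophil and eosinophil markers, 9 fell and 1 rose in M1, and 8 fell in M2a. Their mean level was 6.47 to 8.24 in M0, 4.20 to 4.30 in M1 and 4.47 to 4.60 in M2a. Log2 array values have no zero, so none of these markers can be called absent. These markers moved with every comparison against M0 given here, and their part in the values of the 7 genes was not tested.

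Batf3, the relative of Batf known from dendritic cells, was higher in M2a than in either other group. Its values in M0 arrays 1 to 5 were 6.94, 6.61, 6.81, 6.98 and 6.59. The M1 arrays gave 6.85, 6.94 and 6.89, inside the M0 range. The M2a arrays gave 8.20, 8.23 and 7.75, all above every other array. The rise in M2a was 1.28 ± 0.13 (SE; limma adjusted p = 2.5e-05), or 2.42-fold, while the difference of M1 from M0 was 0.11 ± 0.13 (limma adjusted p = 0.55). The latter passed the test under 1 of 26 alternatives, as a rise of 0.63 (limma adjusted p = 0.032) with the array's hybridization controls as a covariate. M1 lay 2.25-fold below M2a, with a difference of -1.17 ± 0.15 (limma adjusted p = 9.5e-05).

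Since Batf3 is best known for its requirement in cross-presenting dendritic cells, markers of dendritic cells were read beside it. Of the 11 measured, 1 rose and 1 fell in M1, and 1 rose and 1 fell in M2a. Their mean log2 level was 5.94 to 6.03 in M0, 5.93 to 5.99 in M1 and 5.90 to 5.93 in M2a. Xcr1, the chemokine receptor of cross-presenting dendritic cells, had means of 3.78, 3.74 and 3.84 in M0, M1 and M2a. These lay below the array medians of 5.14 to 5.34, in the low range of the arrays. Zbtb46, a transcription factor of conventional dendritic cells, had 5.46, 5.42 and 5.38, and neither gene passed the test in any comparison. The marker that rose in M2a was Flt3, the receptor of a dendritic cell growth factor, by 0.27 ± 0.08 (limma adjusted p = 0.021).

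Jun, the partner shared by FOS and BATF proteins, was higher in M2a. The M0 arrays 1 to 5 held 9.27, 10.01, 10.005, 9.08 and 10.45, the widest M0 spread of the 7 genes. The M1 arrays held 9.69, 9.75 and 10.12, within the M0 range. The M2a arrays held 10.86, 10.82 and 10.93, above every other array and close to one another. The rise in M2a was 1.11 ± 0.27 (SE; limma adjusted p = 0.0080), or 2.15-fold. M1 differed from M0 by 0.090 ± 0.27 (limma adjusted p = 0.81), a difference whose sign changed with the processing. M1 lay below M2a by -1.02 ± 0.30 on the log2 scale (limma adjusted p = 0.024), or 2.02-fold.

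The Jun rise in M2a was called in 25 of 27 alternatives and lost in the others. With the array's hybridization controls as a covariate the difference was -0.18 (limma adjusted p = 0.57). With M0 arrays 4 and 5 as the only controls the adjusted p was 0.059. The hybridization controls are labelled transcripts added before hybridization. They averaged 10.44 to 11.56 on the M0 arrays, 9.35 to 9.56 on M1 and 9.59 to 9.78 on M2a. They did not overlap between M0 and either cytokine state, nor between M1 and M2a, so this covariate and the group cannot be told apart. Values given with it, here and for other genes, show how the fit moves and do not settle a call. Other controls differed more: the spiked poly-A transcripts averaged 9.19 to 10.32 on M0, 5.56 to 5.66 on M1 and 6.31 to 6.50 on M2a, and the 18S rRNA probe sets 8.96 to 9.54, 6.15 to 6.30 and 8.51 to 8.64. Neither was used as a covariate, and their part in the results was not tested. The call between M1 and M2a was lost when M1 array 1, M1 array 2 or any 1 of the M2a arrays was left out, with adjusted p up to 0.083. In a fit of the M1 and M2a arrays alone, which leaves out the wider M0 spread, the limma adjusted p was 9.7e-05.

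Junb, a JUN protein that can also hold back JUN activity, was higher than M0 in both cytokine states and had almost no spread in M0. Its values were 7.78, 7.73, 7.74, 7.76 and 7.74 in M0 arrays 1 to 5. The M1 arrays gave 8.59, 8.62 and 8.78, and the M2a arrays gave 8.33, 8.40 and 8.27. The 3 groups did not overlap, with M1 highest and M0 lowest. The rise was 0.91 ± 0.08 in M1 (SE; limma adjusted p = 3.5e-06), or 1.89-fold. In M2a it was 0.59 ± 0.08 (limma adjusted p = 0.00018), or 1.501-fold. M1 exceeded M2a by 0.33 ± 0.09 (limma adjusted p = 0.015), a difference of 0.20 with no call (adjusted p = 0.30) after quantile normalization. That call was also lost without M1 array 3 (adjusted p = 0.075) or M2a array 3 (adjusted p = 0.062). In a fit of the M1 and M2a arrays alone the limma adjusted p was 0.0051.

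Jund, the JUN protein that most cells make at a steady level, was higher in M2a on its main probe set. M0 arrays 1 to 5 gave 9.70, 9.82, 9.87, 9.82 and 9.77, and the M1 arrays 9.73, 9.71 and 9.60. The M2a arrays gave 10.57, 10.78 and 10.71. The M2a arrays stood apart from the other 8, and M1 overlapped M0. Jund rose by 0.89 ± 0.08 in M2a (SE; limma adjusted p = 1.3e-05), or 1.85-fold, and differed by -0.12 ± 0.08 in M1 (limma adjusted p = 0.29), or by -0.33 (limma adjusted p = 0.034) with quantile normalization. The mean of its probe sets gave a rise in M1 instead, of 0.22 (limma adjusted p = 0.029). M1 lay 2.01-fold below M2a, with a difference of -1.01 ± 0.09 (limma adjusted p = 7.8e-06).

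Fos, the immediate early gene that gave the FOS proteins their name, was the one member of the 7 with its highest mean in M0. The values were 12.24, 11.88, 12.01, 11.64 and 12.44 in M0 arrays 1 to 5. They were 11.57, 11.21 and 11.65 in the M1 arrays and 11.05, 11.27 and 11.21 in the M2a arrays. The M2a arrays lay below every M0 array, whereas M1 array 3 lay just above M0 array 4. Fos fell by 0.86 ± 0.17 in M2a (SE; limma adjusted p = 0.0026), or 1.82-fold. In M1 it fell by 0.56 ± 0.17 (limma adjusted p = 0.022), or 1.48-fold. The fall in M1 lost its call without M1 array 2 (-0.43, adjusted p = 0.12), with median centring (-0.51, adjusted p = 0.052) and with M0 arrays 4 and 5 as the only controls (adjusted p = 0.13). M1 and M2a overlapped, with a difference of 0.30 ± 0.19 (limma adjusted p = 0.28).

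Fosl2 encodes FRA-2, a FOS relative that is usually made later after a signal. Its M0 values, 7.88, 8.22, 8.21, 7.62 and 8.59 in arrays 1 to 5, spanned those of both other groups. The M1 arrays held 7.77, 7.84 and 7.84, and the M2a arrays 8.38, 8.41 and 8.42. No overlap was seen between M1 and M2a, while each overlapped M0. Neither difference from M0 passed the test, at -0.29 ± 0.17 for M1 (SE; limma adjusted p = 0.21) and 0.30 ± 0.17 for M2a (limma adjusted p = 0.22). The M1 difference was called, as a fall, under 8 of 27 alternatives. It was -1.20 with the hybridization covariate (limma adjusted p = 0.0011), -0.84 with the actin controls' 5′ less 3′ signal as a covariate (0.00044) and -0.46 with quantile normalization (0.0020). It was -0.41 without M0 array 4 (0.036), -0.52 without M0 arrays 1 and 4 (0.0015) and -0.38 with array weights (0.0021), and was also called with M0 arrays 1 to 3 as the only controls (0.047) and with the replicate block (0.048). The M2a difference was called under 5 of 27 alternatives. It was a rise of 0.42 without M0 array 5 (limma adjusted p = 0.034) and of 0.27 with the actin covariate (0.023). The rise was also called with M0 arrays 1 to 3 as the only controls (0.049) and with the replicate block (0.05 after rounding). With the hybridization covariate it was a fall of -0.50 (0.044). M1 was lower than M2a by -0.59 ± 0.20 on the log2 scale (limma adjusted p = 0.042), or 1.501-fold. Leaving out any 1 of the 6 M1 and M2a arrays, or M0 array 2 or 3, took the call away, with adjusted p up to 0.11. In a fit of the M1 and M2a arrays alone, which leaves out the wider M0 spread, the limma adjusted p was 4.8e-05.

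**Figure D2:**
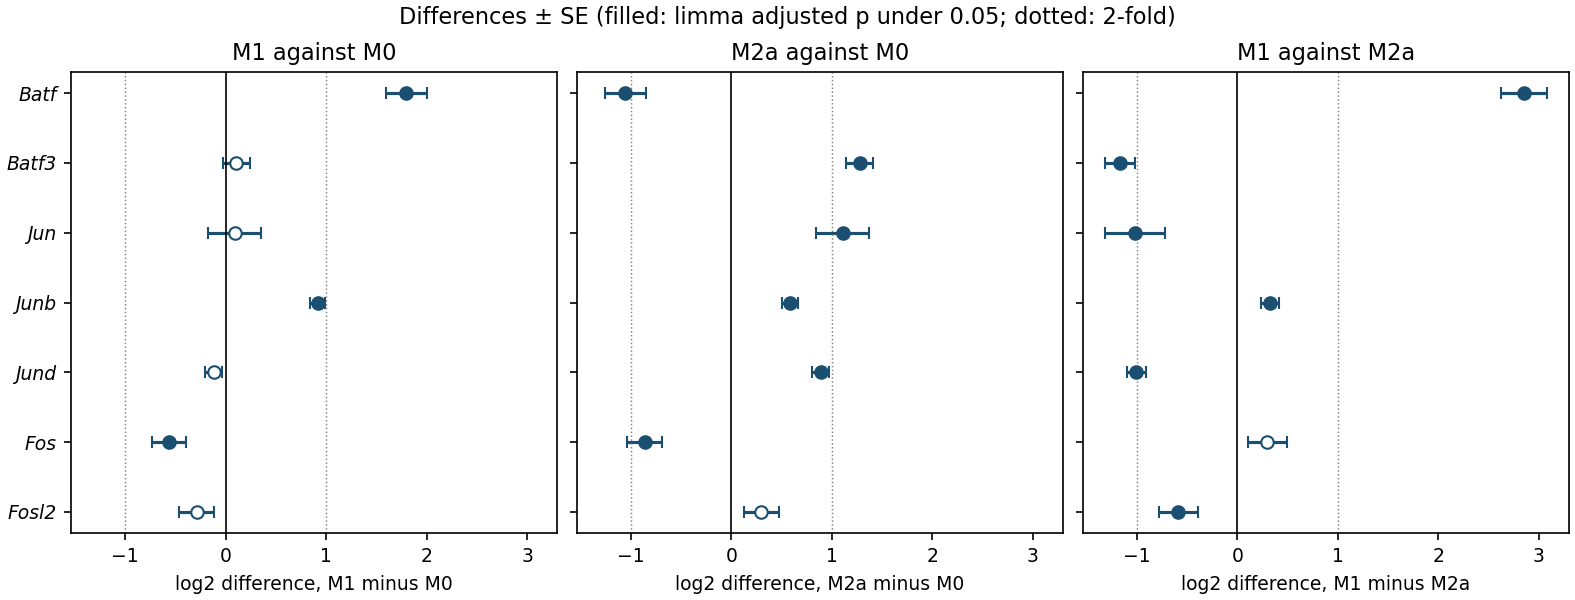
Differences between group means on the log2 scale (x axis) for the 7 genes, ± SE, in the 3 comparisons; filled points have a limma adjusted p under 0.05 and dotted lines mark a 2-fold change. Batf stands farthest right in M1 against M0 (1.80) and in M1 against M2a (2.85), while Batf3 leads the rises in M2a against M0 (1.28).

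A change of at least 2-fold, the size named in the series' design, was passed together with the test by Batf in M1 (12.7% of all genes) and by Batf, Batf3 and Jun in M2a (9.36% of all genes). Between M1 and M2a it was passed by Batf, Batf3, Jun and Jund (11% of all genes). The median difference of the 7 genes was 0.090 in M1 against M0, 0.59 in M2a against M0 and -0.59 in M1 against M2a. Over all genes these medians were 0.058, 0.069 and -0.021.

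The M0 extremes of several members fell on the same arrays. M0 array 5 was the highest and M0 array 4 the lowest for Batf, Jun, Fos and Fosl2. Array 5 exceeded array 4 by 1.08 for Batf, 1.37 for Jun, 0.80 for Fos and 0.97 for Fosl2. For Batf3 the difference was -0.38, for Junb -0.014 and for Jund -0.056. For the actin controls, the signal at the 5′ end less that at the 3′ end, a measure of RNA integrity, was -1.27 on array 4 and 0.048 on array 5, and between -0.63 and -0.58 on the other M0 arrays. It lay between 0.13 and 0.18 on the M1 arrays and between -0.63 and -0.53 on the M2a arrays. The M1 arrays thus overlapped neither other group, so in comparisons of M1 this measure and the group cannot be told apart. With this measure as a covariate, Batf rose in M1 against M0 by 1.17 (limma adjusted p = 0.00031), and Jun differed by -0.70 (limma adjusted p = 0.039). Such values for M1, here and for other genes, show how the fit moves and do not settle a call.

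Jun, Jund and Fosl2 were each measured by a second probe set, tested in a fit over all 34945 probe sets with 1 symbol. The second Jun probe set, 1448694_at, gave means of 8.14 ± 0.37 in M0 (SD, n = 5), 7.92 ± 0.06 in M1 (n = 3) and 9.89 ± 0.05 in M2a (n = 3). It rose in M2a by 1.75 ± 0.18 (SE; limma adjusted p = 2.6e-05), a larger rise than on the main probe set 1417409_at. M1 lay below M2a by -1.97 ± 0.20 (limma adjusted p = 1.7e-05), and its difference from M0 was -0.22 ± 0.18 (limma adjusted p = 0.35). Both Jun probe sets thus placed all 3 M2a arrays above all others.

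The 2 Jund probe sets disagreed. On 1440265_at the means were 4.11 ± 0.16 in M0 (SD, n = 5), 4.67 ± 0.12 in M1 (n = 3) and 4.29 ± 0.10 in M2a (n = 3). All its values lay below the array medians of 5.14 to 5.34, in the low range of the arrays. The main probe set had means of 9.80, 9.68 and 10.68 in M0, M1 and M2a. This probe set rose in M1 by 0.55 ± 0.11 (SE; limma adjusted p = 0.0020) and differed by 0.18 ± 0.11 in M2a (limma adjusted p = 0.24). M1 exceeded M2a by 0.37 ± 0.12 (limma adjusted p = 0.038), opposite to the main probe set 1449117_at. The Fosl2 probe set 1422931_at, with means of 6.33 ± 0.41, 6.39 ± 0.09 and 6.36 ± 0.11 in M0, M1 and M2a, gave no call in any comparison. Its M1 minus M2a difference was 0.032 (limma adjusted p = 0.93). Which transcripts each probe set detects was not tested.

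**Figure D3:**
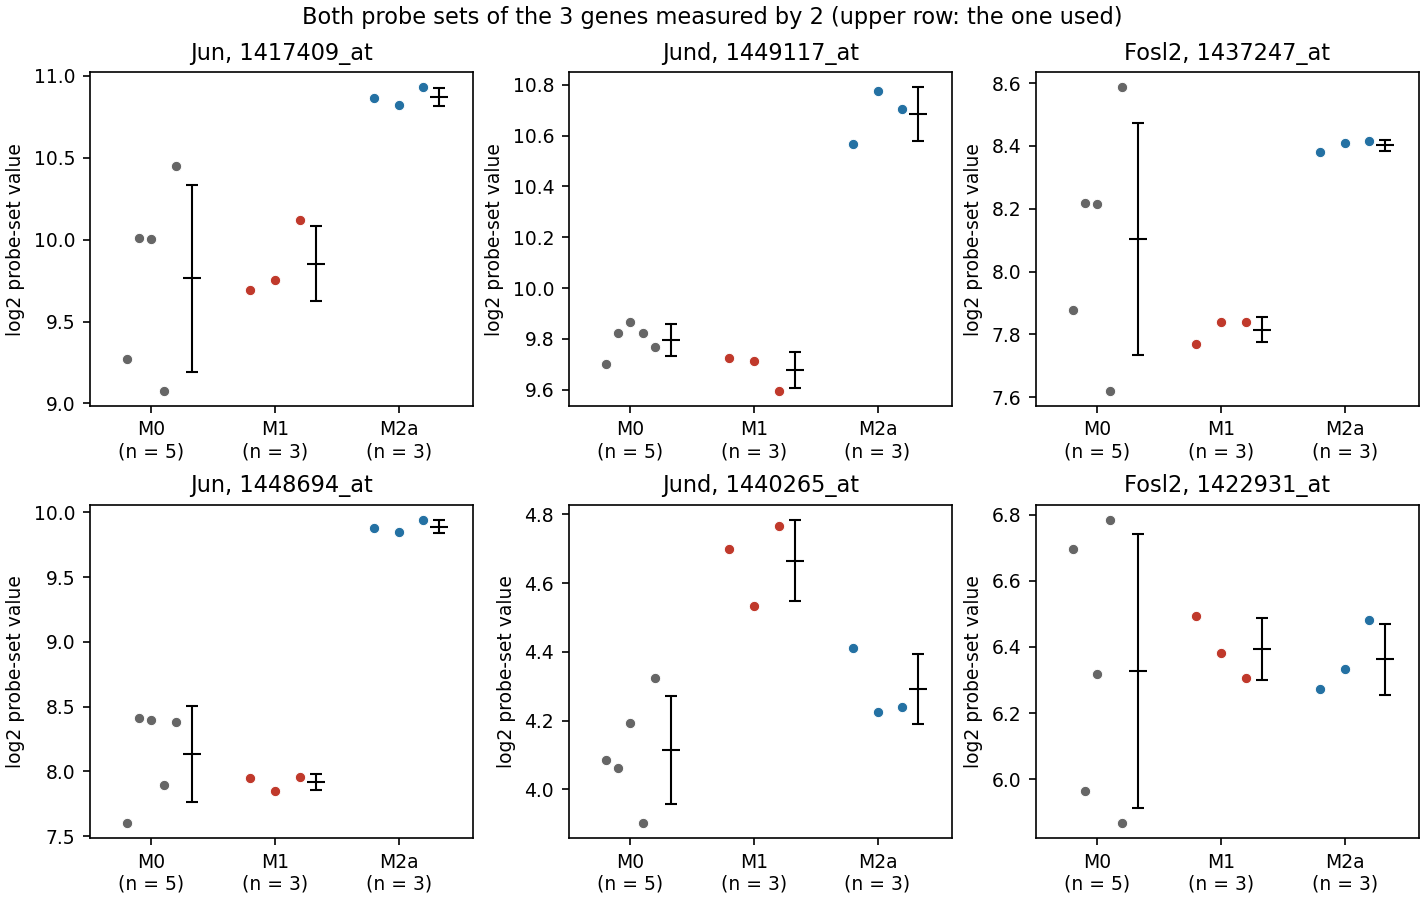
Log2 values (y axis, a separate scale in each panel) of both probe sets of Jun, Jund and Fosl2 in each array of M0 (n = 5), M1 (n = 3) and M2a (n = 3), with the mean ± SD; the upper row holds the probe sets used. Both Jun probe sets are highest in M2a, whereas Jund is highest in M2a on 1449117_at and in M1 on 1440265_at.

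**Figure D4:**
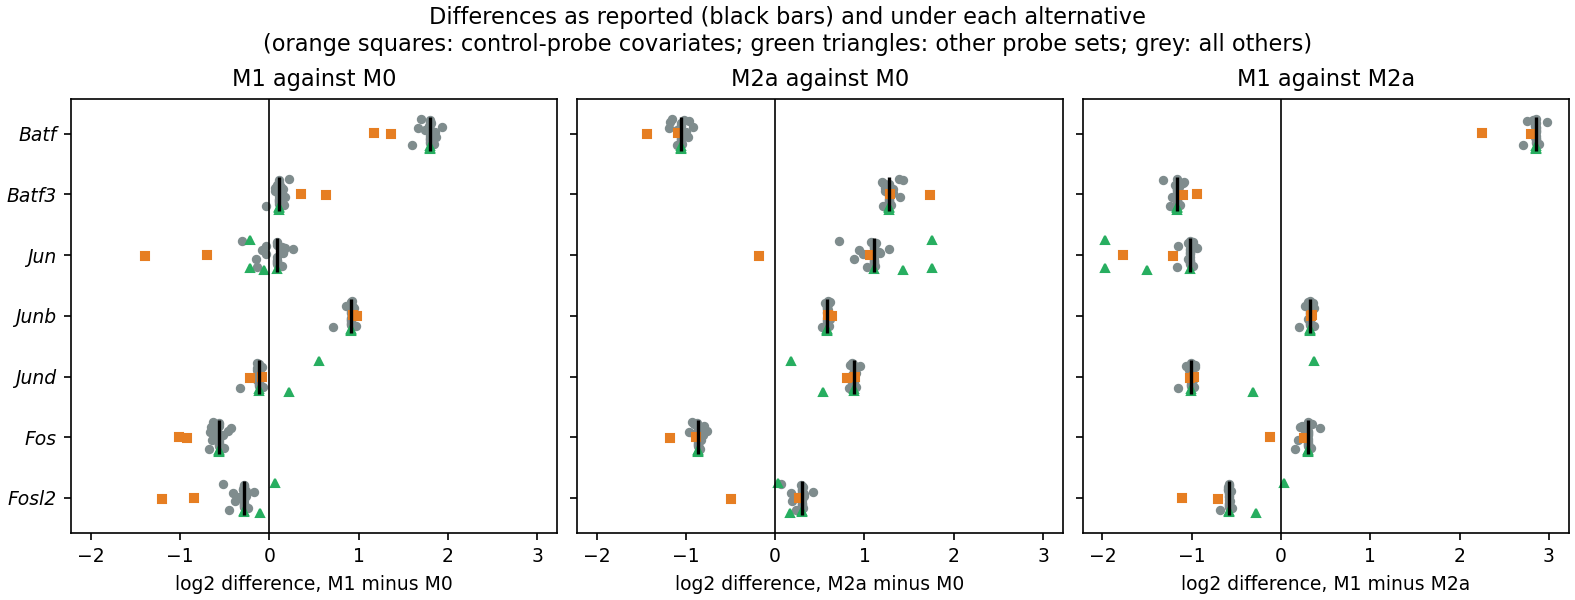
Differences of the 7 genes on the log2 scale (x axis) as reported (black bars) and under every alternative processing, with control-probe covariates as orange squares, other choices of probe set as green triangles and all other alternatives as grey points. Batf and Junb stay right of zero in M1 against M0, while Jun crosses zero there, from -1.39 to 0.26.

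The other AP-1 and related bZIP genes were read as a list, of which 11 of 12 were measured. Counts in this and every other gene or marker list stand beside the shares of all genes called. These were 39.7% in M1 against M0, 31.9% in M2a against M0 and 29.4% in M1 against M2a. In M1 against M0, 3 rose and none fell; in M2a against M0, 5 rose and 3 fell; and in M1 against M2a, 5 were higher and 2 lower in M1. With the hybridization controls as a covariate these counts against M0 became 3 and 3 in M1 and 3 and 2 in M2a. Batf2, the third BATF gene, changed most of all in M1. Its log2 values ran from 5.69 to 6.09 in M0, from 9.97 to 10.03 in M1 and from 6.63 to 6.66 in M2a, with no overlap between the groups. It rose by 4.07 ± 0.10 in M1 (SE; limma adjusted p = 1.3e-10) and by 0.72 ± 0.10 in M2a (limma adjusted p = 0.00021).

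Fosl1, which encodes FRA-1, rose by 1.72 ± 0.18 in M1 (SE; limma adjusted p = 1.8e-05) and by 0.97 ± 0.18 in M2a (limma adjusted p = 0.0018). With the hybridization controls as a covariate these differences were 0.79 in M1 (adjusted p = 0.017) and 0.16 in M2a (adjusted p = 0.53). Maff, a small MAF protein without an activation domain, rose by 1.41 ± 0.09 in M1 and by 0.73 ± 0.09 in M2a (limma adjusted p = 4.5e-07 and 0.00013). Fosb, a close relative of Fos, rose in M2a by 0.77 ± 0.16 (limma adjusted p = 0.0030), from a mean of 4.34 to 5.11, and differed by -0.056 ± 0.16 in M1. Its group means all lay below the array medians of 5.14 to 5.34, in the low range of the arrays. The direction of Fosb in M2a was opposite to that of Fos.

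Atf3, a stress-induced repressor of the ATF group, rose in M2a by 2.17 ± 0.30 (SE; limma adjusted p = 0.00024), from a mean of 9.92 to 12.09. The covariate for hybridization controls lowered this to 0.65 (adjusted p = 0.064). In M1 its difference was 0.65 ± 0.30 (limma adjusted p = 0.11), which passed the test without M0 array 5 (adjusted p = 0.049) and turned to -1.09 (adjusted p = 0.013) with that covariate. Maf, a large MAF factor of macrophages, fell by 3.94 ± 0.24 in M2a (limma adjusted p = 3.8e-07), from 11.27 to 7.33, and held under every alternative run. In M1 the Maf difference was -0.18 ± 0.24 (limma adjusted p = 0.59), and it passed as a fall of -0.55 (adjusted p = 0.00075) without M0 arrays 1 and 4.

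Atf7 and Jdp2, both partners of JUN proteins, fell in M2a by 0.71 ± 0.16 and 0.53 ± 0.15 (SE; limma adjusted p = 0.0062 and 0.016). Under the hybridization covariate the differences were -0.23 for Atf7 (adjusted p = 0.49) and -0.27 for Jdp2 (adjusted p = 0.41). Jdp2 also lost its call without M2a array 1 (adjusted p = 0.071) or M2a array 2 (adjusted p = 0.085). Atf2, Mafg and Mafk passed the test in none of the 3 comparisons. For Atf2 another choice of probe set, that with the largest variance, gave falls of -1.33 in M1 (adjusted p = 0.0046) and -1.90 in M2a (adjusted p = 0.00065).

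**Figure D5:**
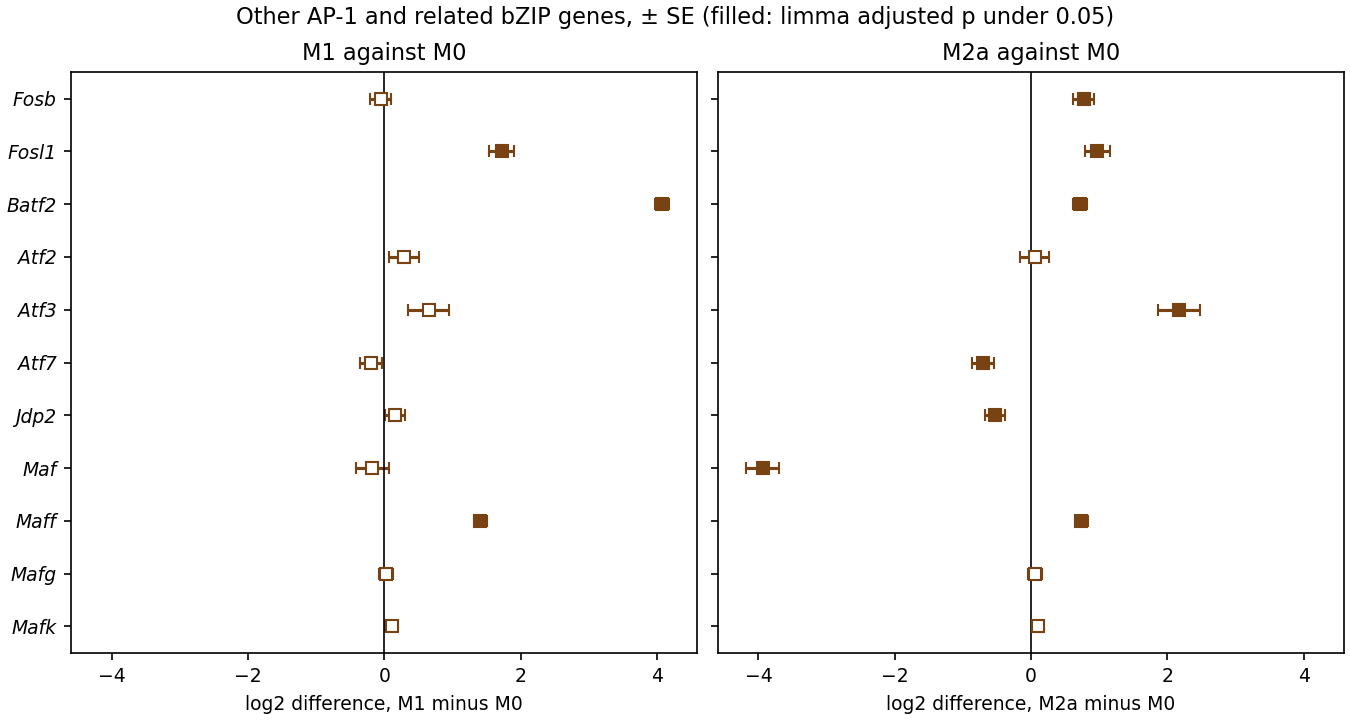
Differences on the log2 scale (x axis), ± SE, of the 11 other measured AP-1 and related bZIP genes in M1 against M0 and M2a against M0; filled squares have a limma adjusted p under 0.05. Batf2 stands farthest right in M1 (4.07), and Maf farthest left in M2a (-3.94).

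BATF proteins bind together with IRF4 or IRF8 and open sites beside factors such as PU.1, STAT3, ETS1 and RUNX1. All 6 of these genes were measured, and 3 rose and 2 fell in M1 while 2 rose and 3 fell in M2a. Irf8 rose by 0.72 ± 0.10 in M1 (SE; limma adjusted p = 0.00020) and was 1.16 ± 0.12 higher in M1 than in M2a (limma adjusted p = 1.3e-05). The M1 rise was 0.28 (adjusted p = 0.14) with the hybridization controls as a covariate. Irf4 rose in M2a by 0.74 ± 0.11 (limma adjusted p = 0.00045) and was lower in M1 than in M2a, with a difference of -1.001 ± 0.13 (limma adjusted p = 9.5e-05). The Irf4 means were 4.73 in M0, 4.47 in M1 and 5.47 in M2a, those of M0 and M1 below the array medians of 5.14 to 5.34. Irf8 was thus higher in the state where Batf was higher, and Irf4 in the state where Batf3 was higher. Any gene that differs between M1 and M2a goes with either Batf or Batf3, as Stat3 and Spi1 did with Batf and Ets1 with Batf3. No link between these genes was tested.

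Spi1, which encodes PU.1, rose by 0.69 ± 0.08 in M1 and 0.42 ± 0.08 in M2a (SE; limma adjusted p = 2.6e-05 and 0.0015). Stat3 was 0.99 ± 0.15 higher in M1 than in M2a (limma adjusted p = 0.00034). Ets1 fell by 2.88 ± 0.27 in M1 (limma adjusted p = 7.3e-06) and by 0.95 ± 0.27 in M2a (limma adjusted p = 0.020). The Ets1 call in M2a was lost without any 1 of the M2a arrays, with adjusted p from 0.052 to 0.079. Runx1 fell by 0.45 ± 0.13 in M1 and 0.65 ± 0.13 in M2a (limma adjusted p = 0.016 and 0.0025), but the mean over its probe sets differed by only -0.027 and -0.12, with no call. Its M1 call was also lost without M1 array 1 (adjusted p = 0.051) or M1 array 2 (adjusted p = 0.061).

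Of the MAP kinase genes that lead to AP-1, 17 of 20 were measured, and 8 rose and 4 fell in M1 while 2 rose and 3 fell in M2a. In M1 against M2a, 5 were higher and none lower. The counts moved by over 1.5 times under several alternatives: with the hybridization covariate they were 3 and 5 in M1 and 1 and 7 in M2a. They were 6 and 2 in M1 without M1 array 1 or M1 array 2, and 5 and 3 without M1 array 3. The fall of Map3k5, the stress kinase ASK1, was the steadiest, at 1.34 ± 0.10 in M1 and 1.58 ± 0.10 in M2a (SE; limma adjusted p = 1.1e-06 and 5.3e-07).

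Mapk9, which encodes JNK2, a kinase of JUN, rose in M1 by 1.45 ± 0.25 (SE; limma adjusted p = 0.00081), and differed by 0.013 (adjusted p = 0.97) with the hybridization covariate. Map3k8, the kinase TPL2 that links LPS signals to ERK, rose in M1 by 1.44 ± 0.42 (limma adjusted p = 0.017). That call was lost without any 1 of the M1 arrays, with adjusted p from 0.050 to 0.055, and turned to -1.04 with the hybridization covariate. Against M2a, Map3k8 was 2.38 ± 0.47 higher in M1 (limma adjusted p = 0.0023). Mapk14, p38 alpha, fell by 0.63 ± 0.09 and 0.82 ± 0.09 in M1 and M2a (limma adjusted p = 0.00015 and 2.9e-05), whereas its most variable probe set differed by 0.12 and -0.061 with no call. Mapk8, which encodes JNK1, and Elk1, an ERK-driven activator of Fos, rose in M2a by 0.55 ± 0.12 and 0.55 ± 0.15 (limma adjusted p = 0.0046 and 0.016). They also rose in M1, by 0.75 ± 0.12 and 0.74 ± 0.15 (limma adjusted p = 0.00045 and 0.0025), and neither passed the test between M1 and M2a. In M2a both lost the call when the mean over their probe sets was used, at 0.17 and 0.26. The Elk1 call in M2a was also lost without M2a array 1 (adjusted p = 0.055) or M2a array 3 (adjusted p = 0.075).

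All 9 MAP kinase phosphatases were measured; 3 rose and 5 fell in M1, and 2 rose and 3 fell in M2a. Dusp4, a nuclear phosphatase of MAP kinases, rose by 4.13 ± 0.24 in M2a (SE; limma adjusted p = 2.5e-07), from a mean of 5.31 to 9.44. In M1 Dusp4 rose by 0.81 ± 0.24 (limma adjusted p = 0.019). Dusp6, a phosphatase of ERK, fell by 1.08 ± 0.16 in M2a and by 0.46 ± 0.16 in M1 (limma adjusted p = 0.00030 and 0.036). Dusp5, another, fell by 1.37 ± 0.13 in M1 and by 0.41 ± 0.13 in M2a (limma adjusted p = 7.7e-06 and 0.033). Dusp3 fell by 1.07 ± 0.23 in M1 (limma adjusted p = 0.0028), while its rise of 0.70 ± 0.23 in M2a (limma adjusted p = 0.034) was lost without any 1 of the M2a arrays, with adjusted p from 0.081 to 0.10. Dusp16, a phosphatase of JNK, and Dusp2 rose in M1 by 1.502 ± 0.21 and 0.94 ± 0.18 (limma adjusted p = 0.00017 and 0.0014). With the hybridization covariate these became 0.32 (adjusted p = 0.23) and 0.048 (adjusted p = 0.87). Dusp10 fell by 0.66 ± 0.15 in M2a (limma adjusted p = 0.0049), while the mean over its probe sets differed by -0.15 with no call. In M1 Dusp10 fell by 0.44 ± 0.15 (limma adjusted p = 0.031).

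Other immediate early genes moved in both directions. Of the 20 measured, 5 rose and 9 fell in M1, and 9 rose and 8 fell in M2a. Egr2 rose by 3.73 ± 0.41 in M2a (SE; limma adjusted p = 3.7e-05), whereas its relative Egr1 fell by 1.72 ± 0.17 (limma adjusted p = 2.1e-05). In M1 both fell, Egr2 by 1.31 ± 0.41 and Egr1 by 2.14 ± 0.17 (limma adjusted p = 0.025 and 2.2e-06). Ier2 fell in both states, by 2.16 ± 0.23 in M1 and 1.76 ± 0.23 in M2a (limma adjusted p = 1.6e-05 and 0.00012), as Fos did. Btg2, an inhibitor of proliferation, fell by 2.78 ± 0.18 in M1 and by 1.64 ± 0.18 in M2a (limma adjusted p = 2.8e-07 and 3.3e-05). Klf4, a zinc finger factor, rose by 1.40 ± 0.19 in M1 and by 2.08 ± 0.19 in M2a (limma adjusted p = 0.00012 and 8.9e-06). Sgk1, a kinase, rose by 1.37 ± 0.36 in M1 and by 1.41 ± 0.36 in M2a (limma adjusted p = 0.011 for each). The Sgk1 call in M1 was lost with either control covariate (-0.55 and 0.54). In M1 against M2a, 3 were higher, among them Ier3 by 1.47 ± 0.19 (limma adjusted p = 0.00011) and Nr4a2 by 1.14 ± 0.25 (limma adjusted p = 0.0050). Nr4a2 differed by -0.24 with no call when probe sets shared between transcripts were left out. Lower in M1 were 9 genes, among them Egr2 by -5.04 ± 0.46 and Rhob by -2.38 ± 0.13 (limma adjusted p = 5.5e-06 and 8.9e-08).

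Among genes whose proteins bind, modify or turn over AP-1, 10 of 13 were measured; 1 rose and 3 fell in M1, and 4 rose and 2 fell in M2a. Cop1, part of a ubiquitin ligase for JUN, fell in M1 by 0.87 ± 0.08 (SE; limma adjusted p = 5.1e-06). Ep300, a coactivator of AP-1, fell by 0.85 ± 0.11 in M1 (limma adjusted p = 8.5e-05) and 0.43 ± 0.11 in M2a (limma adjusted p = 0.011). The Cop1 fall of 0.24 ± 0.08 in M2a (limma adjusted p = 0.036) was called in 13 of 26 alternatives and was lost without any 1 of the M2a arrays, without M0 array 2, 3 or 5, and without M1 array 2 or 3. Fbxw7 and Gsk3b, a ubiquitin ligase and a kinase that mark JUN for breakdown, rose in M2a by 0.98 ± 0.16 and 0.76 ± 0.14 (limma adjusted p = 0.00062 and 0.0014). They were 0.41 and 0.16, with no call, under the hybridization covariate. Cops5, which encodes the JUN coactivator JAB1, rose in M1 by 0.83 ± 0.23 (limma adjusted p = 0.015), but not without M1 array 1 (adjusted p = 0.052) and not with the actin covariate (0.085, adjusted p = 0.74).

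Textbook AP-1 targets changed in both directions. Of the 19 of 20 measured, 8 rose and 2 fell in M1, and 7 rose and 7 fell in M2a. Without M2a array 3 the M2a counts were 4 and 8, and with the hybridization covariate they were 6 and 7 in M1 and 3 and 7 in M2a. Ptgs2, the inducible cyclooxygenase, rose by 5.32 ± 0.23 in M1 (SE; limma adjusted p = 1.1e-08) and fell by 3.18 ± 0.23 in M2a (limma adjusted p = 1.3e-06). Il1b, a cytokine of inflammation, rose by 4.15 ± 0.16 in M1 (limma adjusted p = 5.0e-09). Mmp13, a collagenase, rose by 5.44 ± 0.56 in M2a (limma adjusted p = 2.4e-05), and the matrix gene Fn1 by 2.32 ± 0.23 (limma adjusted p = 1.5e-05). Mmp9, a gelatinase also stored by neutrophils, fell by 2.59 ± 0.22 in M1 (limma adjusted p = 2.8e-06). Ccl2, a monocyte chemokine, fell by 2.06 ± 0.45 in M2a (limma adjusted p = 0.0048). Cd44, an adhesion receptor, fell by 0.76 ± 0.09 in M1 (limma adjusted p = 3.8e-05), whereas its most variable probe set differed by 0.51 with no call.

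The members' patterns over the 11 arrays can be described by Pearson correlation, which rests largely on the 3 group means and is given without a p. Among the 7 genes, Batf3 and Jund were most alike (r = 0.93), followed by Jun and Fosl2 (r = 0.85). Batf ran most against Jund (r = -0.78). Over all other genes with a symbol that is not clone-like, those nearest to each member were Cemip2 (r = 0.99) and Spata13 (0.99) for Batf, and Il17b (0.99) and Yipf7 (0.99) for Batf3. For Jun they were Aebp2 (0.99) and Slc39a6 (0.99), for Junb Slc5a7 (0.99) and Cacna1d (0.98), and for Jund Lims2 (0.99) and Pkp2 (0.99). Fos was most like Pradc1 (0.98) and Zfp217 (0.97), and Fosl2 most like Tm9sf3 (0.99) and Arsk (0.98). Spata13 followed the order of Batf, with means of 5.72 in M0, 7.87 in M1 and 4.75 in M2a, and Pkp2 that of Jund, with 4.31, 3.84 and 8.99.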

How the data were processed

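RNA of 11 samples was measured on single-colour Affymetrix arrays. Each array's file as deposited by the authors holds log2 values of 45101 probe sets, with array medians between 5.14 and 5.34. Partek is named in the submitters' processing notes. For background correction and normalization, the method is not given in the sources used here. A probe-set table gave 1 symbol for 34945 probe sets, of which 34741 were updated by Entrez identifier, and several for 932, which were left out with the 64 control probe sets.

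Differences were tested by lmFit and eBayes of limma 3.58.1 under R 4.3.3, in a single model of the 3 group means over the 11 arrays. P-values were adjusted by Benjamini-Hochberg over 18193 genes, with a threshold of 0.05. Of these genes, 9010 had several probe sets; the one with the highest mean was used, with no filter on low values. Precision is limited by the number of arrays. The test was checked on data simulated as independent arrays with a single SD per gene shared by all groups. That check does not cover the M0 arrays as deposited, which are tied to one another and spread more widely. The members, gene lists and tests were chosen with earlier results of these data known. Named were all 7 members with every probe set, the other AP-1 and related bZIP genes, up to 2 called rises and 2 falls per list and comparison, and the 2 genes most correlated with each member, passing over clone-like symbols. Alternatives changed the probe set, normalization, filter, eBayes settings, arrays, array weights, replicate block and control covariates, each alone; the second probe sets and the fit without M0 arrays 1 and 4 were added after seeing the data.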

Additional observations from a re-analysis of the deposited data

How the results depend on the processing

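Each member difference was recomputed under 26 alternatives, or 27 for Jun, Jund and Fosl2, whose second probe set was added after seeing the data. Batf and Junb in M1 against M0, Batf, Batf3, Fos and Junb in M2a against M0, and Batf and Batf3 in M1 against M2a kept their direction and call in all of them. Many alternatives could not move a difference. Batf, Batf3, Fos and Junb have a single probe set, so choices of probe set left their differences unchanged. The tie between the M0 arrays fixed the differences with either M0 subset and with the replicate block. For Jun, the most variable and the second probe set are the same. Tallies of alternatives, here and above, are therefore not counts of independent checks. The members called, 3 in M1 against M0, became 5 with quantile normalization, 6 with the hybridization covariate and 5 with the actin covariate. They were 2 to 4 with each array left out in turn. Of all 18193 genes, 7217 were called as reported, 8587 with quantile normalization, 7845 with the hybridization covariate and 7250 with the actin covariate. With each array left out, 5391 to 8457 of all genes were called. Leaving out each array gave 6 to 7 members in M2a against M0, while all genes called ran from 4161 to 6829, against 5804 as reported. In M1 against M2a it gave 3 to 6 members, with 3 when M2a array 3 was out and 4 when any other M1 or M2a array was. All genes called there fell from 5341 to 4030 without M2a array 3, and to between 3927 and 4076 without the others.

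The Jun difference of M1 from M0 turned to -0.064 with the mean of its probe sets, -0.22 with its most variable probe set or its second one, -0.14 with quantile normalization and -0.15 with array weights. It was -1.39 with the hybridization covariate, -0.70 with the actin covariate and -0.30 without M0 arrays 1 and 4, and ran from -0.082 to 0.26 with each array left out. Also in M1 against M0, Jund turned to 0.22 with the mean of its probe sets and 0.55 on its second one, both called. There Batf3 turned to -0.034 with quantile normalization, and Fosl2 to 0.068 on its second probe set. In M2a against M0 the hybridization covariate gave -0.50 for Fosl2 (adjusted p = 0.044) and -0.18 for Jun. In M1 against M2a, Fos turned to -0.13 with the actin covariate, Fosl2 to 0.032 and Jund to 0.37 on their second probe sets. The causes were not tested.

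Same-numbered arrays did not pair: their deviations from the group means correlated at 0.25, 0.04 and 0.17 between M0 and M1, at 0.00, 0.01 and -0.04 between M0 and M2a, and at 0.04, 0.01 and 0.02 between M1 and M2a. With the replicate block 4, 7 and 6 members were called in the 3 comparisons, the added call being Fosl2 in both comparisons against M0. That block gave 8023, 6492 and 6963 calls among all genes. Over all genes, 7217 were called in M1 against M0 and 4758 with M0 arrays 4 and 5 alone; 5804 in M2a against M0 and 3801 so; and 5341 in M1 against M2a, 11342 with array weights and 10357 with those groups only. Median centring moved the median of all genes in M1 against M0 from 0.058 to 0.11.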

Other observations

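Markers of further cell types also differed between the groups, as values beside the transcription factors and with no cause tested. Of 10 stroma and endothelium markers, 4 fell in M1 and 7 in M2a, with none rising. Acta2, the smooth muscle actin, fell from a mean of 9.60 in M0 by 2.80 ± 0.19 in M1 and by 3.29 ± 0.19 in M2a (SE; limma adjusted p = 5.8e-07 and 2.8e-07). Of the 6 erythroid and megakaryocyte markers measured, 2 rose and 3 fell in M1, and 3 fell in M2a. Pf4, a platelet chemokine, fell by 4.40 ± 0.16 in M1 and fell by 3.54 ± 0.16 in M2a (limma adjusted p = 3.2e-09 and 3.7e-08). Of the 7 T, B and NK cell markers measured, 1 rose and 2 fell in each comparison with M0. Cd79b, a signalling chain of the B cell receptor, fell from a mean of 7.62 to 5.18 in M1 and 4.73 in M2a, with differences of -2.44 ± 0.29 and -2.89 ± 0.29 (limma adjusted p = 4.6e-05 and 2.0e-05).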
